A study of Danio rerio with 17 samples.

Results

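The 5 sham liver samples are the uninjured baseline of a series of 17 bulk RNA-seq samples on cryoinjury of the adult zebrafish liver, the other 12 of which came from injured livers. They were chosen as the count columns whose names end in SHAM, and no contrast with injury was made. In a sham operation the abdomen is opened and a cryoprobe that has already thawed is laid on the exposed liver, so these livers went through anaesthesia and surgery without freezing. The livers came from *Tg(fabp10a:NLS-mCherry)* fish, in which the hepatocyte promoter of *fabp10a* drives a red nuclear reporter, and the methods give an age of 4 to 9 months for the adults of all experiments. The carrier line is shared by all samples, and no non-transgenic liver was analysed. The labels give neither the sex of the animals, nor the time from surgery to dissection, nor the lobe that was taken. The methods describe each replicate as RNA pooled from 3 livers, and the samples are called pools below, but nothing in the labels says that the 5 pools are separate sets of animals. A legend of the supplement calls the replicates technical, so the SDs and p-values below measure the spread between these samples, which may be technical.

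The liver makes most of the proteins of the blood plasma, stores and releases glucose, assembles lipoproteins, breaks down amino acids, makes bile and detoxifies foreign compounds. In teleosts as in mammals, hepatocytes make up most of its mass and carry these tasks. Bile duct cells, the endothelium of the sinusoids, stellate cells, macrophages and blood cells fill the rest. In adult zebrafish the exocrine pancreas and its islets lie scattered along the intestine beside the liver lobes, so that a dissected liver can carry some of that tissue.

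The 5 pools held between 4804488 and 6800961 counts each. In every pool 39.1 to 44.1% of them fell in 5 entries of the table whose names start with NC_002333, the mitochondrial genome record, and a single one of these held 38.55 to 43.93%. All levels below are shares of the counts outside these 5 entries, or CPM, the same counts scaled to a total of 1000000 per pool. The counts outside came to 2926785 to 3801628 per pool. They are shares of reads and were not divided by transcript length, so an order between genes is an order of reads and not of molecules. Errors are SD over the 5 pools (n = 5), and values listed in a row follow the order of sham replicates 1 to 5. A floor of 3 counts corresponds to 0.789 to 1.03 CPM. Of the 8508 entries outside the mitochondrial record, 7947 were detected in all 5 pools, and 4594 had a mean of at least 10 CPM. The correlation of log2 CPM across entries was 0.841 to 0.887 among replicates 1 to 4 and 0.800 to 0.853 between replicate 5 and the rest, over entries that are not independent of each other. The library number in the labels of replicate 5 is also far from those of the other 4, which run consecutively. Some results that rest on this pool, but not all, are given without it as well.

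A small set of transcripts held much of the counts of the sham pools, and those for secreted and lipid-carrying proteins led it. The 10 most abundant entries held 29.9 ± 2.63% of the counts, the 50 most abundant 50.9 ± 3.63% and the 100 most abundant 61.6 ± 3.66%. These shares cover other classes too, since 32 of the first 100 encode cytosolic ribosomal proteins and 9 are mitochondrial mRNAs. On the mean of the pools, 47 entries made up 50% of the counts, and in single pools this number was 63, 39, 36, 43 and 50. The first place was held by *apoa2*, which encodes a structural protein of high density lipoprotein, with 9.17, 8.72, 10.3, 7.86 and 5.45% of the counts in replicates 1 to 5. Replicate 5 was the lowest, and there *apoa1b* held about as many counts as *apoa2*. The *apoa1b* transcript, for the main protein of high density lipoprotein, reached 3.09, 3.6, 4.19, 4.39 and 5.46%, lowest in replicate 1 and highest in replicate 5. The *tfa* transcript, for the iron carrier transferrin, was the steadiest of the 4 leading entries at 4.07, 3.93, 4.02, 4.88 and 3.6%. The fourth was *apoc1*, a small apolipoprotein that is exchanged between lipoprotein particles, at 2.79, 2.22, 3.33, 3.81 and 5.4%. The hepatocyte fatty acid and bile acid binding protein gene *fabp10a*, whose promoter also drives the reporter, came next at 2.46, 2.72, 2.23, 2.82 and 1.92%.

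The order of these 5 was set by reads, and neighbours in it did not all separate. The means of *apoa1b* (4.15 ± 0.898%) and *tfa* (4.1 ± 0.473%) differed by less than their spread between pools. *apoa2* at 8.31 ± 1.82% lay above *tfa* in all 5 pools and above *apoa1b* in 4 of 5. Places 6 to 9 and place 11 were held by mitochondrial mRNAs that the table names separately from the NC_002333 entries, led by *COX3* at 1.91 ± 0.564%. Their 13 protein-coding entries together made 7.35, 9.61, 12.1, 7.72 and 7.82% of the counts, and none of them varied 4-fold between pools.

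**Figure D1:**
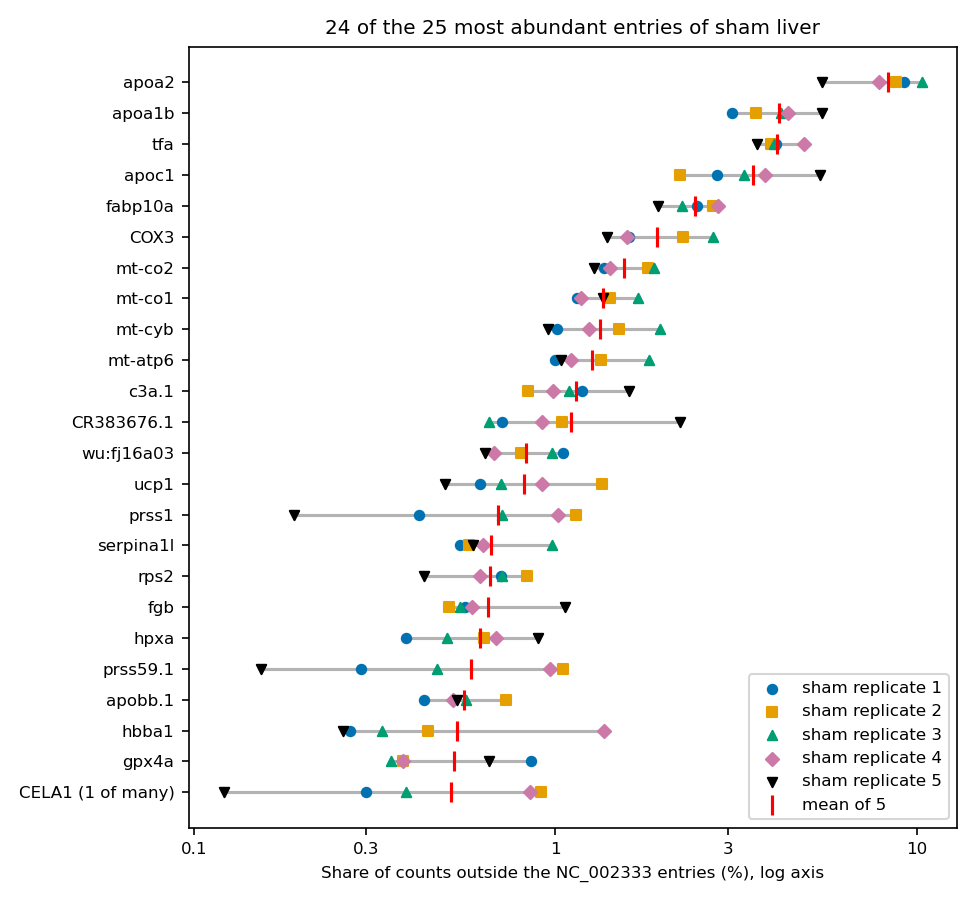
Share of the counts outside the NC_002333 entries (%, log axis) of 24 of the 25 entries with the highest mean, with a symbol for each of the 5 sham replicates, a grey line for their range and a red bar for their mean. The *tfa* and *fabp10a* entries sit close together across pools, with the highest pool 1.36 and 1.47 times the lowest. For *apoa2*, *apoa1b* and *apoc1* it was 1.89, 1.77 and 2.44 times, while *prss1*, *prss59.1*, CELA1 and *hbba1* spread widely.

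Below these followed *c3a.1*, the central component of the complement cascade (1.14 ± 0.287%), and *ucp1*, whose mammalian counterpart uncouples respiration in brown fat (0.818 ± 0.335%). Among the rest of the first 25 were *serpina1l*, a relative of the protease inhibitor alpha-1-antitrypsin (0.665 ± 0.179%), *fgb*, the beta chain of fibrinogen (0.652 ± 0.23%), *hpxa*, the haem carrier haemopexin (0.621 ± 0.193%), *apobb.1*, the scaffold of very low density lipoprotein (0.557 ± 0.109%), and *gpx4a*, which reduces lipid peroxides (0.524 ± 0.223%). The entries CR383676.1 (1.11 ± 0.634%) and *wu:fj16a03* (0.8289 ± 0.179%) were also among the 25 and carry no gene name in the table. Only 16 entries were among the first 25 in every pool, and the 5 lists of 25 held 39 different entries. Of the first 25, 4 varied at least 4-fold between the highest and the lowest pool. These were the haemoglobin gene *hbba1* and the pancreatic protease genes *prss1*, *prss59.1* and CELA1. Over all 4594 entries with a mean of at least 10 CPM, 26.8% varied that much.

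The genes of each function were searched by name or name pattern, and a sum covers only the entries found in the table used here. Found were 16 of 22 apolipoprotein names and 64 of 89 names of amino acid breakdown and one-carbon metabolism. For fatty acid and triglyceride synthesis they were 20 of 34. Grouped by function, apolipoproteins took the largest share of any list, 16.4, 16.1, 19.7, 17.6 and 18.04% in the 5 pools. It was spread over 16 entries, but *apoa2*, *apoa1b* and *apoc1* carried most of it. In the GRCz12tu gene order of RefSeq, *apoa4b.2*, *apoeb* and *apoc1* follow one another with no gene between them and 2 genes separate *apoc1* from *apoa2*, which places 2 of the 4 leading entries in 1 cluster. The apolipoprotein E gene *apoeb*, a ligand for lipoprotein receptors, reached 1507, 687, 1474, 1252 and 3575 CPM, highest in replicate 5. Its duplicate *apoea* was low and uneven at 56.5, 413, 8.32, 20.9 and 0.342 CPM, with 1 count in replicate 5 and its highest level in replicate 2. The 2 copies of apolipoprotein A-I differed in level and in steadiness, since *apoa1a* stood at 79.1, 569, 1653, 127 and 1303 CPM against the steady *apoa1b*. *apoa1a* was high in replicates 3 and 5 and low in replicates 1 and 4. In all, 5 of 15 apolipoprotein entries with at least 10 CPM varied 4-fold or more, a share near the 26.8% of all entries.

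Among the other plasma proteins, carriers and protease inhibitors were nearly as even in sum, at 6.96, 7.72, 8.03, 8.58 and 7.8% of the counts. Complement and coagulation genes were less so. This comparison of evenness holds for column totals and was not made with TMM factors, which run from 0.813 in replicate 3 to 1.26 in replicate 5. Beside *tfa*, *serpina1l* and *hpxa*, this list held the fetuins *ahsg1* (4893 ± 1279.7 CPM) and *fetub* (4208 ± 939 CPM), which bind calcium phosphate and inhibit proteases. Complement genes made 2.71, 2.11, 2.25, 2.58 and 3.57%, highest in replicate 5, and were led by *c3a.1* and by *c9*, the pore-forming component of the cascade, at 3461, 2627, 1736, 3755 and 6739 CPM. Coagulation genes made 1.65, 1.57, 1.61, 1.82 and 3.36%. Replicate 5 stood above the other 4 pools, which lay between 1.57 and 1.82%, and without it the mean was 1.66%. The higher sum of replicate 5 was shared by *fgb* (5612, 5067, 5453, 5876 and 10610.3 CPM), *fga*, the alpha chain of fibrinogen (3377, 3369.9, 3054, 3036 and 8953 CPM), and *plg*, the plasmin precursor (1014, 1016, 1755, 1234 and 4193 CPM).

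The third fibrinogen gene did not follow the first pair. *fgg*, which encodes the gamma chain of the same secreted protein, stood at 680.5, 3.42, 444, 1078 and 443 CPM. It was nearly missing in replicate 2, with 13 counts, although *fgb* had 5067 CPM and *fga* 3369.9 CPM there. In the RefSeq gene order *fgb* and *fga* lie with 1 gene between them, whereas 359 genes separate *fga* from *fgg*. Vitellogenins, the yolk precursors that the liver of laying females secretes, were searched by 8 names, of which *vtg3* and *vtg4* were in the table used here and the others were not analysed. *vtg3* was seen in replicate 5 at 74.8 CPM and reached at most 1.85 CPM in the other pools. *vtg4* was also highest in replicate 5 but stayed at or below 8.54 CPM.

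Transcripts of central metabolism made smaller but still sizeable shares. Glucose and glycogen genes came to 2.64, 3.82, 3.1, 2.75 and 1.87%, highest in replicate 2 and lowest in replicate 5. Among the leading members were *gapdh* of glycolysis, which was even at 5385, 4780.3, 3811, 4439 and 4452 CPM, and the liver pyruvate kinase gene *pklr* at 4097, 6023, 6891, 2452 and 1103 CPM. *pklr* was high in replicates 1 to 3 and lower in replicates 4 and 5. The gene of glucokinase, *gck*, which traps glucose in the fed liver, was far higher in replicate 1 than elsewhere, at 1698, 22.6, 20.9, 7.84 and 2.73 CPM. *pck1* of gluconeogenesis was also highest in replicate 1, at 223, 53.4, 4.93, 58.4 and 22.2 CPM. Of 30 members with at least 10 CPM, 7 varied 4-fold, a share near the 26.8% of all entries.

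With column totals, amino acid breakdown and one-carbon metabolism gave the most even sum of the lists above 1%, 2.29, 2.1, 2.24, 2.2 and 2.22%. The leading members were *bhmt*, which returns a methyl group from betaine to homocysteine (4072 ± 1215 CPM), *hpda* of tyrosine breakdown (3944 ± 1314 CPM), *ahcy*, which clears the product of methylation reactions (2949.6 ± 730.0 CPM), and *uox*, the urate oxidase (1745 ± 398 CPM). Of its members, 19 of 57 varied 4-fold, against 26.8% of all entries. The gene pair of tryptophan dioxygenase, the first enzyme of tryptophan breakdown, was low in replicate 1. *tdo2a* stood at 0.544, 107, 92.1, 202 and 279 CPM and *tdo2b* at 4.89, 214, 147, 34.3 and 117 CPM. The 2 enzymes of creatine synthesis moved apart, with the first-step gene *gatm* at 667, 21.8, 320.3, 70.9 and 181 CPM and the second-step gene *gamt* at 0.272, 78.7, 0.308, 179.8 and 239 CPM. *gamt* had a single count each in replicates 1 and 3, where *gatm* was highest.

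Lipid-binding proteins made 2.97, 3.13, 2.73, 3.31 and 2.21%, most of it *fabp10a*, followed by *fabp3* (1841 ± 345 CPM) and *scp2a* (1231 ± 181 CPM). Fatty acid oxidation was low in reads and even, at 0.268, 0.296, 0.273, 0.31 and 0.344%, with *acat1*, which splits acetoacetyl-CoA, and *etfb*, an electron carrier of the pathway, in the lead. The carnitine palmitoyltransferase gene *cpt1b*, of the step that admits fatty acids to mitochondria, was less even. It stood at 2.17, 24.2, 2.46, 45.6 and 128 CPM and was highest in replicate 5. Genes of bile acid synthesis and transport made 0.0925, 0.147, 0.123, 0.117 and 0.174%, led by the transporter gene *slco1d1* (421 ± 191 CPM). Only 19 of the 38 names of this list were in the table used here, and *slc10a1*, *baat* and *cyp7b1* were not among them. The bile salt export pump gene *abcb11b* was steady at 96.5, 127, 144, 159 and 162 CPM, as was the bile acid hydroxylase gene *cyp8b1* (58.6 ± 13.02 CPM).

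Detoxification genes also differed little in sum. Cytochromes P450 of the families that act on foreign compounds made 0.205, 0.202, 0.191, 0.281 and 0.27%, led by *cyp2k22* (533 ± 149 CPM), *cyp2ad2* (368 ± 45.03 CPM) and *cyp2y3* (364 ± 70.6 CPM). *cyp3a65*, a member of the family that metabolises many drugs in mammals, departed from this at 69.6, 63.9, 29.9, 164 and 499.5 CPM, highest in replicate 5. Conjugating enzymes, which attach glutathione, sulphate or glucuronic acid, made 0.339, 0.321, 0.381, 0.345 and 0.266%, led by the glutathione transferase gene *gstr* (1081 ± 170.0 CPM). Of those with at least 10 CPM, 9 of 23 P450 entries and 11 of 24 conjugation entries varied 4-fold, both shares above the 26.8% of all entries. No test was made of that difference.

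With column totals, the ribosomal protein genes were even in level across the pools. The spread of their sum was not examined with TMM factors. Cytosolic ribosomal proteins made 11.9, 14.03, 11.8, 12.03 and 10.8% of the counts and supplied 32 of the 100 most abundant entries. Only 1 of 67, *rps27l*, varied 4-fold (103, 204, 118, 182 and 495 CPM), against 26.8% of all entries. Nuclear-encoded subunits of the respiratory chain and ATP synthase made 2.27, 1.59, 2.27, 1.77 and 1.37%, with 3 of 68 varying 4-fold. This list was highest in replicates 1 and 3, and in 40 of its 68 members both pools exceeded the other 3, against 12.9% of all entries tested. With TMM factors the count was 31 of 68 and with DESeq2 size factors 35, against 18.3 and 19.9% of all entries. This pair of pools was noted from the values themselves, and no test was made of it. The mitochondrial mRNAs had another order, being highest in replicates 3 and 2. *ndufs7*, a subunit of complex I, was at 0 in replicate 1 and had 0.616 CPM in replicate 3, but 14.99, 25.6 and 26.3 CPM in the others.

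Regulators were much lower in level. Of 42 names of hepatocyte transcription factors searched, 30 were in the table used here, and *hnf4a*, *nr1h4* and *gata4* were not. The factors found summed to 0.194, 0.12, 0.0947, 0.133 and 0.334%, highest in replicate 5, and without this pool the mean was 0.135%. They were led by *xbp1*, which governs the secretory apparatus (717, 238, 258, 263 and 1178 CPM), *prox1a*, needed in liver development (194, 173, 112, 134 and 384 CPM), and *nr5a2*, a nuclear receptor of bile acid and cholesterol metabolism (152, 125, 100.1, 76.96 and 298 CPM). *cebpa*, a regulator of metabolic genes in hepatocytes, was high in replicate 1 and low in the rest (129, 2.89, 1.54, 18.3 and 7.52 CPM). Genes of the insulin-like growth factor and fasting axis made 0.105, 0.12, 0.118, 0.112 and 0.171%. *igfbp1a*, a binding protein that rises in fasting fish, stood at 35.9, 164, 52.4, 62.7 and 214 CPM. *foxo1a*, a transcription factor that insulin restrains, was at 13.9, 23.9, 29.9, 26.4 and 277 CPM, and replicate 5 stood far above the other 4.

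The labels do not give the time of day at dissection. Clock genes made 0.0505, 0.0395, 0.0273, 0.0475 and 0.0541% and 4 of 13 varied 4-fold, a share near the 26.8% of all entries. *cry1aa*, a repressor of the clock, was even at 30.7, 46.3, 29.3, 41.8 and 41.00 CPM, whereas *nr1d2a*, a nuclear receptor of the clock, ranged over 23.1, 17.4, 6.16, 46.5 and 16.4 CPM. Immediate early and heat shock genes made 0.628, 0.29, 0.294, 0.26 and 0.553%, higher in replicates 1 and 5 than in the others, and 10 of 15 varied 4-fold, against 26.8% of all entries. Much of the sum in replicate 1 was *hspa5*, the chaperone of the endoplasmic reticulum, at 3169, 347, 661, 178 and 728 CPM. In replicate 5 the cytosolic chaperone *hspa8* stood out at 7.34, 21.3, 12.3, 5.52 and 186 CPM, and the stress-induced factor *atf3* was highest in replicates 1 and 5 at 37.2, 1.32, 4.93, 4.94 and 29.7 CPM.

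**Figure D2:**
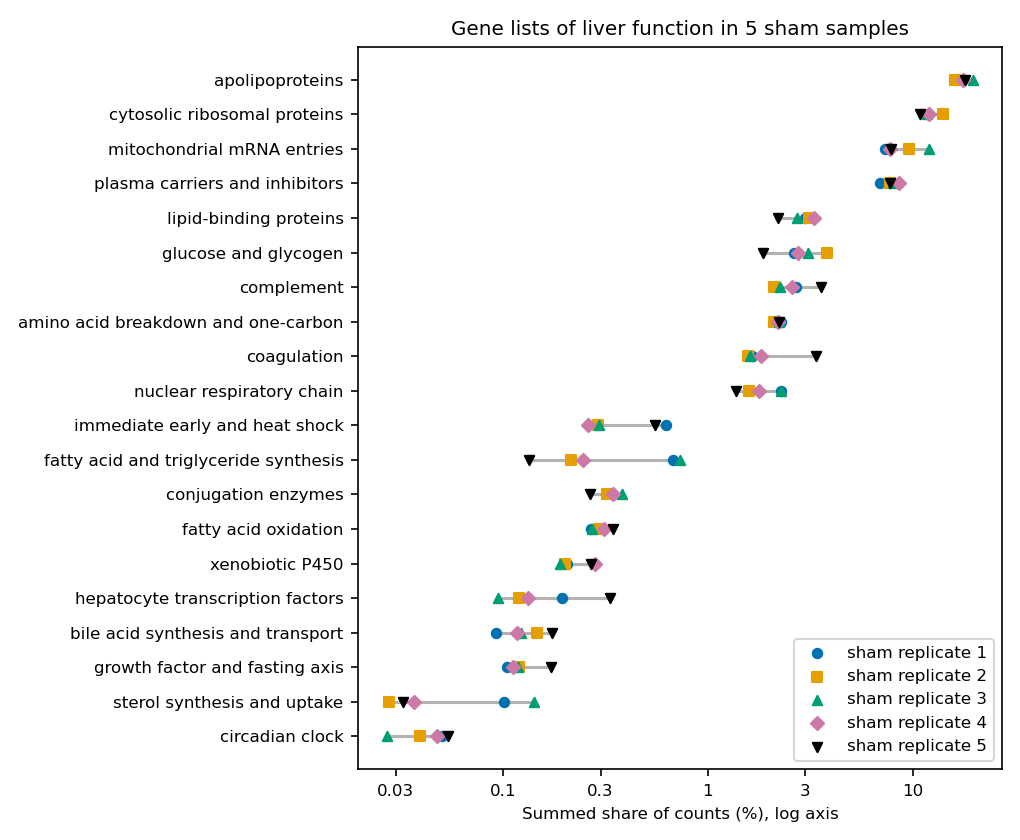
Summed share of counts (%, log axis) of 19 function lists and of the mitochondrial mRNA entries, with a symbol for each of the 5 sham replicates and a grey line for their range. With these column totals, lists of plasma carriers, ribosomal proteins and amino acid breakdown are tight. Fatty acid and triglyceride synthesis spans 0.135 to 0.736% and sterol synthesis and uptake 0.0277 to 0.141%.

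The tissue label was checked against marker lists. The hepatocyte list, with 9 of its 10 genes in the table, summed to 172488, 169899, 185659, 171905 and 134262 CPM. A large part of this was *apoa2*, with a mean of 83053 CPM against 166842 CPM for the list. Of the 9 genes 2 varied 4-fold, *ambp* and *tdo2a*, against 26.8% of all entries. The next list by level was that of the exocrine pancreas, the gland that makes digestive enzymes, at 18434, 56011, 27727, 55125 and 9879.8 CPM. All of its 21 entries had at least 10 CPM, and 19 varied 4-fold, against 26.8% of all entries. The trypsin gene *prss1* stood at 4185, 11387, 7115, 10153 and 1889 CPM and the amylase gene *amy2a* at 273, 1107, 348, 888 and 89.9 CPM. Replicates 2 and 4 exceeded the other 3 pools in 20 of 21 entries, against 5.66% of all entries tested. With TMM factors or DESeq2 size factors this was 19, against 9.98 and 9.74% of all entries. This pair of pools was noted from the values themselves, and no test was made of it. With column totals, replicate 5 was the lowest in 18 of the 19 entries that varied 4-fold, against 186 of the 1230 such entries over all. With TMM factors it was the lowest in 317 of 1005 over all, and the list was not counted this way.

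Hormone genes of the islets followed another order. *sst1.1* and *sst2*, which encode somatostatins, stood at 687, 216, 6.16, 102 and 0.683 CPM and 573, 250.4, 25.3, 65.1 and 1.03 CPM. Glucagon, encoded by *gcga*, stood at 457, 92.3, 16.3, 73.2 and 27.7 CPM. All 5 hormone entries above 10 CPM were highest in replicate 1, which was only the fourth in exocrine enzymes. All 5 varied 4-fold, and replicate 1 was the highest in 380 of the 1230 entries that did so over all. Intestinal markers summed to 415, 522, 298, 198 and 79.3 CPM. Of 7 entries with at least 10 CPM, 6 varied 4-fold, against 26.8% of all entries, and of these 3 were highest in replicate 2, 2 in replicate 1 and 1 in replicate 3. Over all 1230 such entries these pools were the highest in 122, 380 and 77. Most of the sum in replicate 1 was *chia.6*, a chitinase gene, at 268, 68.4, 156, 104 and 22.6 CPM, and *agr2*, a gene of secretory cells, was also highest there at 24.7, 11.8, 4.93, 9.29 and 4.44 CPM. In replicate 2 the acidic chitinase gene *chia.2* (4.62, 118, 0.308, 1.162 and 0 CPM), the peptide transporter gene *slc15a1b* (2.72, 76.5, 0.924, 0.29 and 0.342 CPM) and the aminopeptidase gene *anpepb* (2.17, 71.8, 2.77, 2.9 and 3.08 CPM) were high together, and so was *mep1a.1* (0.815, 89.4, 1.54, 0.871 and 0 CPM), a meprin gene known from the brush border of the gut. In replicate 3 it was *fabp6*, the ileal bile acid binding protein gene, that stood alone (0.815, 0, 48.05, 5.52 and 0 CPM).

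Blood and the minor cell types of the liver were also measured. Red cell genes summed to 3324, 6102, 3929, 17680.4 and 3144 CPM, and replicate 4 lay above the other 4. As for the exocrine pancreas, replicates 2 and 4 both exceeded the other 3 pools, here in 9 of 10 entries, against 5.66% of all entries tested. With TMM factors or DESeq2 size factors this was 8, against 9.98 and 9.74% of all entries. Here too the pair was noted from the values, and no test was made of it. The haemoglobin gene *hbba1* was at 2709.9, 4456, 3306, 13600.2 and 2584 CPM and the red cell carbonic anhydrase gene *cahz* at 7.88, 21.8, 4.004, 111 and 6.49 CPM. Without replicate 4 the red cell list had a mean of 0.412% of the counts against 0.684% with it. Macrophage genes summed to 867, 239.9, 149, 444 and 471 CPM, led by the antigen presentation gene *cd74a* (511, 142, 84.7, 239.9 and 285 CPM), and all 6 entries above 10 CPM varied 4-fold, against 26.8% of all entries. Stellate cell and fibroblast genes summed to 566, 408, 347, 818 and 727 CPM and biliary genes to 655, 664, 282, 489 and 623 CPM. Endothelial genes summed to 31.3, 39.5, 28.6, 47.05 and 64.2 CPM, but only 6 of the 18 names searched were in the table used here. The best-measured of them was *cdh5*, the cadherin of endothelial junctions, at 14.4, 13.4, 11.1, 16.6 and 22.6 CPM. The table held 7 of 14 biliary, 9 of 18 macrophage and 12 of 18 stellate cell and fibroblast names. These sums cover only the names found, so a low sum is not a measure of the cell type. None of the 16 lymphocyte names and none of the 5 thrombocyte names searched was in the table used here. The germ cell gene *ddx4* was at 0 in 3 pools and reached at most 2.37 CPM. In bulk samples more cells of a type and more RNA per cell cannot be told apart, and the part of neighbouring tissue in the other values was not tested.

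**Figure D3:**
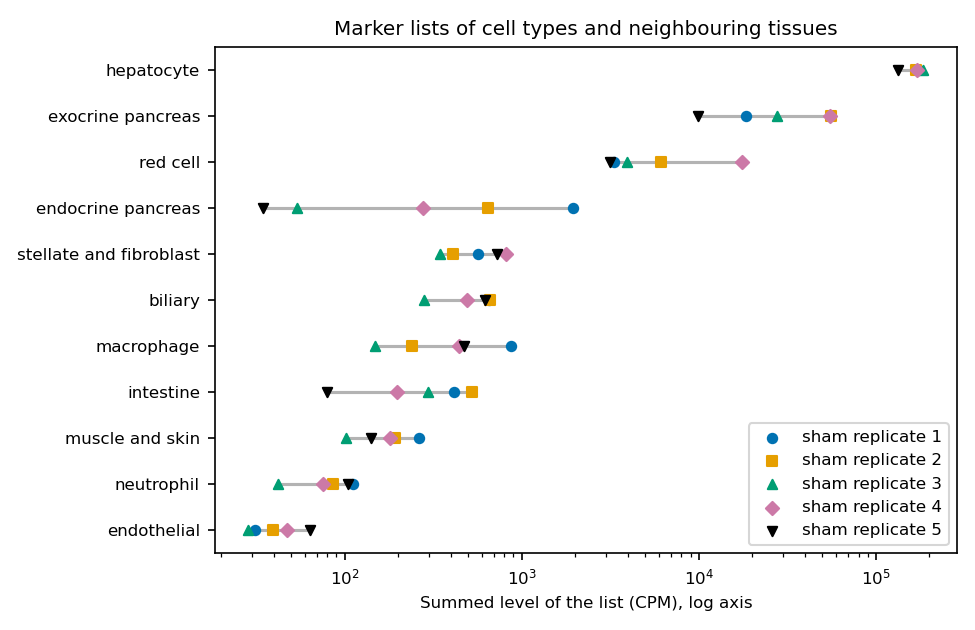
Summed CPM (log axis) of 11 marker lists of cell types and neighbouring tissues, with a symbol for each of the 5 sham replicates and a grey line for their range. The hepatocyte list is far above the rest and fairly even in sum. The exocrine pancreas list is high in replicates 2 and 4, the red cell list in replicate 4 and the endocrine pancreas list in replicate 1.

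Variation between the pools was widespread. Of 4594 entries with at least 10 CPM, 4397 (95.7%) varied by more than counting error, by a likelihood ratio test of edgeR with the dispersion fixed at 0 and an adjusted p of at most 0.05. This test measures the spread between these 5 libraries only. All of the 25 most abundant entries passed it. The median ratio of the highest to the lowest pool was 2.77, and 3518 entries (76.6%) varied at least 2-fold, 1230 (26.8%) at least 4-fold and 321 (6.99%) at least 10-fold. The share above 4-fold fell with level, from 28.5% of entries between 10 and 50 CPM to 23.6% between 50 and 500 CPM and 18.6% at 500 CPM or more. The common biological coefficient of variation estimated by edgeR was 0.522.

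The pools contributed unequally to this spread. Among the 1230 entries, replicate 5 was the highest in 526, replicate 1 in 380, replicate 4 in 125, replicate 2 in 122 and replicate 3 in 77. The lowest pool was replicate 3 in 388 entries, replicate 1 in 241, replicate 2 in 230, replicate 5 in 186 and replicate 4 in 185. Without replicate 5, 744 entries varied 4-fold, 17.02% of those tested. The direction within pools depended on the scaling. With TMM factors, which give replicates 1 and 5 factors of 1.14 and 1.26 and replicate 3 one of 0.813, 1005 entries varied 4-fold. Replicate 5 was then the highest in 233 and the lowest in 317, replicate 1 in 257 and 298, and replicate 3 in 176 and 156.

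**Figure D4:**
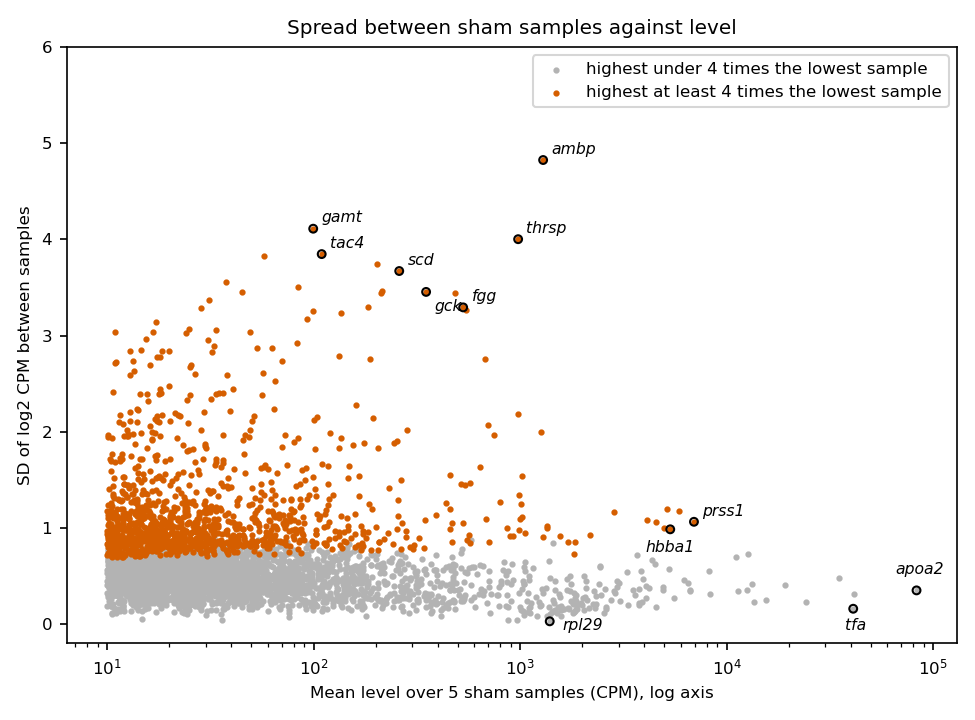
SD of log2 CPM between the 5 sham samples (prior count 2) against the mean level in CPM (log axis) for the 4594 entries with a mean of at least 10 CPM. The 1230 entries whose highest pool was at least 4 times the lowest are in orange, and the named entries run from *rpl29* at 0.03 to *ambp* at 4.82.

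The sums of the fatty acid and sterol synthesis genes differed between the pools. Of the fatty acid and triglyceride list, 12 of 17 members varied 4-fold, and of the sterol list 8 of 14, against 26.8% of all entries. The sums were 0.677, 0.215, 0.736, 0.246 and 0.135% for the first list and 0.101, 0.0277, 0.141, 0.0367 and 0.0326% for the second, highest in replicates 1 and 3 in both. Single members of the first list followed this less closely, since both pools exceeded the other 3 in 6 of 17, with column totals as with TMM factors or DESeq2 size factors. Of all entries tested, 12.9% did so with column totals, 18.3% with TMM factors and 19.9% with DESeq2 size factors. Of the 12 members of the first list that varied 4-fold, 6 were highest in replicate 1, 3 in replicate 3, 2 in replicate 5 and 1 in replicate 4. Over all 1230 such entries these pools were the highest in 380, 77, 526 and 125. *scd*, the desaturase that makes oleic acid, stood at 874, 12.6, 374, 36.9 and 1.03 CPM. *thrsp*, a lipogenic factor that responds to thyroid hormone, was at 1107, 317, 3221, 243 and 1.71 CPM with replicate 3 in the lead. Both were lowest in replicate 5, where *scd* had 3 counts and *thrsp* 5. The elongase gene *elovl2* was likewise highest in replicates 1 and 3 and lowest in replicate 5, at 449, 91.8, 639, 215 and 18.8 CPM, and so was *fads2*, the desaturase of long polyunsaturated fatty acids, at 1030.2, 822, 1963, 1018 and 189.6 CPM. *dgat2*, which closes triglyceride synthesis, was high in replicate 1 (2282, 533, 746, 488 and 579 CPM), and so was *srebf1*, the transcription factor of lipogenesis (144, 38.7, 42.5, 29.04 and 51.6 CPM).

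In the sterol list the pattern was nearly complete. Replicates 1 and 3 both exceeded the other 3 pools in 12 of 14 members, with column totals as with TMM factors or DESeq2 size factors. Of all entries tested, 12.9% did so with column totals, 18.3% with TMM factors and 19.9% with DESeq2 size factors. *hmgcs1*, an early step of the mevalonate pathway, stood at 54.1, 2.37, 69.9, 4.65 and 11.96 CPM. *fdps*, which makes farnesyl diphosphate, was at 72.6, 15.3, 140.4, 7.26 and 6.49 CPM. The late steps *cyp51* (29.6, 4.998, 85.01, 7.55 and 3.76 CPM), *hsd17b7* (20.4, 6.58, 60.98, 0.29 and 1.71 CPM) and *ebp* (75.3, 7.37, 82.5, 2.61 and 0 CPM) were higher in replicates 1 and 3 as well. The low density lipoprotein receptor gene *ldlra* was not, with 30.4, 34.5, 74.2, 55.2 and 68.7 CPM. Outside both lists, *aacs*, which turns acetoacetate into a lipid precursor, was also highest in replicates 1 and 3, at 1548, 38.1, 774, 54.6 and 3.76 CPM. This pair of pools was noted from the values themselves, and no test was made of it.

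Single genes with other roles varied as strongly. *ambp*, which encodes the plasma proteins alpha-1-microglobulin and bikunin, had the largest SD of log2 CPM, 4.82. It stood at 923, 1707, 908, 0.29 and 2923 CPM, which for replicate 4 was a single count. In the other 4 pools *ambp* was among the plasma carriers of high level. *gamt* (4.11) and *thrsp* followed in SD, and next came *tac4*, a tachykinin precursor gene, at 3.85. *tac4* was found in replicate 1 almost alone (543, 0.263, 0.924, 1.74 and 1.03 CPM). *ces3*, a carboxylesterase gene, stood at 346, 216, 228, 263 and 0.683 CPM, with 2 counts in replicate 5 and an even level in the rest.

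Several of these entries were near 0 in 1 or 2 pools and well expressed in every other. There were 8 with at most 3 counts in 1 or 2 pools and at least 50 CPM in each of the rest. Beside *ambp*, *ces3*, *tdo2a* and *gamt* these were *sycn.1* (syncollin of pancreatic granules, 99.5, 312, 197, 463 and 0.683 CPM), *arl6ip1* (an endoplasmic reticulum protein gene, 85.1, 105, 92.1, 67.7 and 0.683 CPM), *slc27a1b* (a fatty acid transport protein gene, 0.272, 65.5, 64.7, 0 and 58.4 CPM) and an entry that has no gene name (163, 0.263, 130.3, 103 and 67.3 CPM). The duplicate of *sycn.1*, *sycn.2*, kept 92.9 CPM in replicate 5. Of all entries tested, 96 (2.09%) had at most 3 counts in at least 1 pool.

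The opposite case, a gene far higher in 1 pool than in any other, was also seen. *mhc1uba*, a class I histocompatibility gene, stood at 0.272, 0.263, 0.308, 0.29 and 142 CPM. *p4ha3*, a collagen prolyl hydroxylase gene, stood at 0, 0, 0.616, 0 and 85.8 CPM and *cbln13*, a cerebellin gene, at 1.36, 0, 3.08, 0.871 and 48.2 CPM, both in replicate 5. In replicate 3, *zgc:171534* (0.544, 0, 153, 0 and 1.71 CPM), si:dkeyp-73d8.8 (13.3, 78.4, 2427, 8.42 and 217 CPM) and the cathepsin gene *ctsl.1* (1.9, 3.95, 134, 14.2 and 0 CPM) were the furthest above the next pool. Replicate 4 had the fewest entries at least 4 times above every other pool, 4 with *cahz* among them, and the elastase gene *ela2l* came close at 3.76 times the next pool (176, 234, 354, 1328 and 191 CPM). *ccl39.2*, a chemokine gene, was high in replicates 3 and 4 and near 0 in the others (1.9, 2.37, 321, 94.7 and 1.03 CPM).

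**Figure D5:**
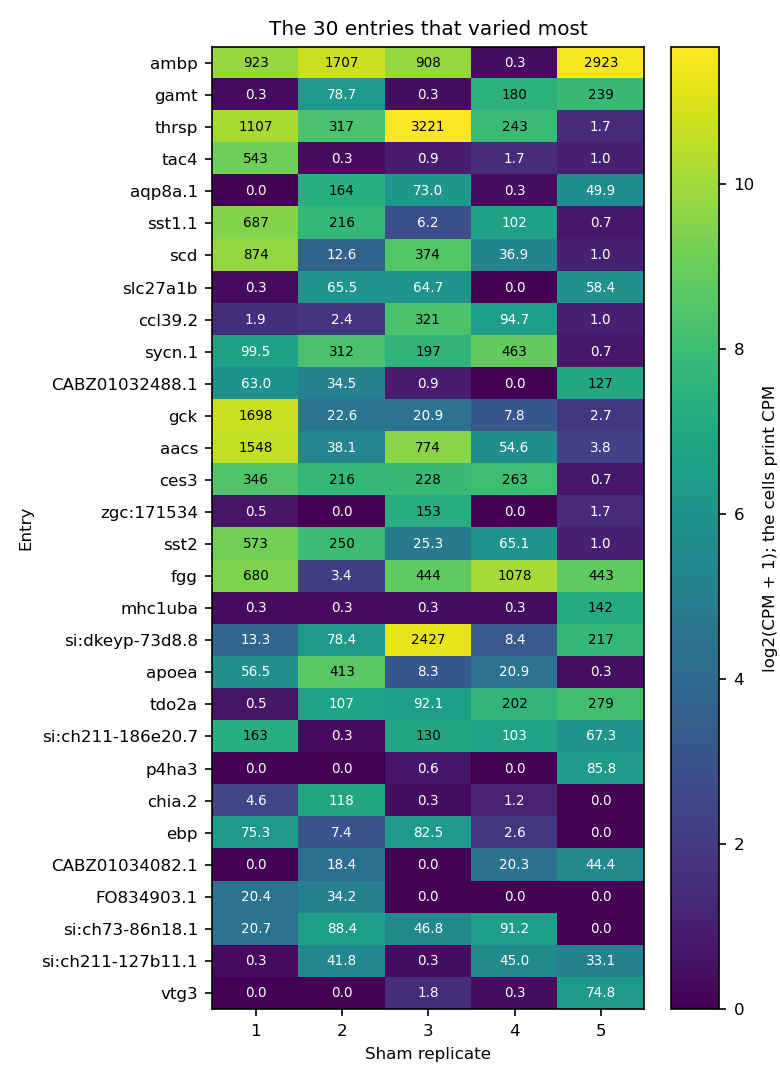
The 30 entries of at least 10 CPM with the largest SD of log2 CPM, one row each and one column for each sham replicate, coloured by log2(CPM + 1) with the CPM printed in each cell. Most rows hold at least one cell near 0, as for *ambp* in replicate 4 and *thrsp* in replicate 5.

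Counted over all entries, 76 (1.65%) had 1 pool at least 4 times above every other and 117 (2.55%) had 1 pool at least 4 times below. Replicate 5 held 28 of the first kind and 42 of the second, and replicate 1 held 21 and 41. Replicate 2 held 15 and 6, replicate 3 held 8 and 21, and replicate 4 held 4 and 7. With TMM factors replicate 5 held 10 above and 63 below, and replicate 1 held 14 and 58. Under either scaling replicates 1, 4 and 5 held more entries far below the other pools than far above them, in replicate 4 by few entries (4 above and 8 below with TMM factors). Replicate 3 did so with column totals but held 12 of each kind with TMM factors.

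At the other end, a few genes barely moved with column totals. The ranking and the adjusted p-values that follow use column totals only. TMM factors run from 0.813 in replicate 3 to 1.26 in replicate 5, so a gene that is even with column totals is less even with them. Among entries of at least 100 CPM, the ribosomal protein gene *rpl29* had the smallest SD of log2 CPM, 0.03, at 1365, 1408, 1432, 1378 and 1372 CPM. The spread of *rpl29* did not exceed counting error (edgeR likelihood ratio test, adjusted p = 0.102), nor did that of *comtd1*, a methyltransferase domain gene (907, 870.2, 867, 849 and 898 CPM; adjusted p = 0.0678), or *rsl24d1*, a ribosome assembly gene (adjusted p = 0.125). These 3 were among the 10 entries picked for the smallest spread in the same values. Their p-values are therefore no separate support for steadiness. The other 7 of the 10 steadiest passed that test with small spreads. They were *eif5a*, a translation factor gene, *itih3b*, which encodes a heavy chain that bikunin is joined to, and 5 ribosomal protein genes, *rps21*, *rpl8*, *rps8a*, *rps15a* and *rps4x*. *itih3b* stood at 436, 433, 406, 416 and 380.3 CPM in the same pools in which its partner *ambp* ranged from 1 count to 2923 CPM. The housekeeping gene *gapdh* varied 1.41-fold between the highest and the lowest pool.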

How the data were processed

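Bulk RNA-seq of 17 liver samples was deposited, and the 5 sham samples were used here. Per the labels, TRIzol RNA was made into libraries with a stranded total RNA kit for low input and read at 75 bp on a NextSeq 500, while another label field names polyA RNA. The authors trimmed reads with cutadapt 1.16, mapped them with Hisat2 2.1.0 and counted them per gene with featureCounts 1.6.0. The submitters' notes name the build danRer10 and the methods a later Ensembl build, so no coordinates are given. The authors deposited raw counts for 8513 entries, and the filter behind that number, the use of strand and the treatment of reads with several positions are not given in the sources used here. Duplicated genes are therefore uncertain. A table of CPM by the authors was not used. Of the entry names, 7804 (91.7%) matched the gene name tables.

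Counts were divided by the column total outside the 5 NC_002333 entries. Entries were called variable where the highest pool was at least 4 times the lowest, a pool under 3 counts being set to 3, within the set whose mean reached 10 CPM, and were ranked by the SD of log2 CPM with a prior count of 2. Entries under 10 CPM were left out of these counts because the floor is close. Counting error was tested in edgeR 4.0.16 (R 4.3.3) with dispersion 0 and Benjamini-Hochberg adjustment over 4594 entries, a test that was tried on simulated data. It covers counting error only, and reads without molecular identifiers are not independent molecules. Genes named are the 25 most abundant, the 30 most and 10 least variable (the latter at 100 CPM or more), up to 5 leading members and the 4-fold variable members of 20 function lists and 15 marker lists, the 5 furthest above or below the next pool in each sample, and marker genes at 0. Names outside this rule were chosen after their values were seen. The samples and lists were chosen with earlier results of these data known. Alternatives were TMM factors, DESeq2 1.42.0 size factors, other totals, filters and prior counts, and leaving out each pool.

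The supplement and the methods differ on how many livers and replicates were pooled and on whether replicates are technical. Gene order was read from RefSeq on GRCz12tu. Promoter and protein sequences, transcript lengths and injured samples were not used here. Certain entries that the rule names are not reported here.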

Additional observations from a re-analysis of the deposited data

Results flagged for a closer look

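Each list sum and each gene chosen by its level or spread or named above was searched for a pool that lay far from the other 4, by the gap to its nearest neighbour over the whole range of the 5 values. This was the case for 5 of 33 lists and 37 of 135 genes. The cutoff gives about 1 in 20 by chance only for normally distributed values, which CPM need not be. Many of these genes had also been named for their spread, so the counts cannot be judged against that rate. Replicate 5 was the pool in question in 17 cases, replicate 1 in 9, replicate 2 in 7, replicate 3 in 5 and replicate 4 in 4.

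With column totals, replicate 5 was far above the other pools in the coagulation list (3.36% of the counts), the growth factor and fasting axis list (0.171%) and the vitellogenin list (0.00834%). The search was not repeated with TMM factors. Replicate 5 has the largest of these, 1.26, which lowers its levels, so a smaller gap such as that of the growth factor and fasting axis list may depend on the scaling. The genes were CR383676.1 (22052 CPM), *fgb* (10610.3 CPM), *fga* (8953 CPM), *plg* (4193 CPM), *apoeb* (3575 CPM), *slco1d1* (752 CPM), *cyp3a65* (499.5 CPM), *rps27l* (495 CPM), *foxo1a* (277 CPM), *hspa8* (186 CPM), *mhc1uba* (142 CPM), *p4ha3* (85.8 CPM), *vtg3* (74.8 CPM) and *cbln13* (48.2 CPM). In replicate 1 they were the chaperone gene *hspa5*, the lipid genes *dgat2* and *srebf1*, the glucose genes *gck* and *pck1*, and others, with *hspa5* (3169 CPM), *dgat2* (2282 CPM), *gck* (1698 CPM), *tac4* (543 CPM), *gcga* (457 CPM), *pck1* (223 CPM), *srebf1* (144 CPM) and *cebpa* (129 CPM). Its cytochrome gene *cyp2ad2* was the only one with a low pool, at 291 CPM.

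In replicate 2 the genes were *apoea* (413 CPM), *chia.2* (118 CPM), *mep1a.1* (89.4 CPM), *slc15a1b* (76.5 CPM) and *anpepb* (71.8 CPM), of which 4 are intestinal, and the germ cell gene *ddx4* at 2.37 CPM, which made the whole ovary list (0.000237% of the counts). In replicate 3 they were si:dkeyp-73d8.8 (2427 CPM), *serpina1l* (9810.3 CPM), *zgc:171534* (153 CPM), *ctsl.1* (134 CPM) and *fabp6* (48.05 CPM). In replicate 4 they were the red cell list (1.77% of the counts) with *hbba1* (13600.2 CPM) and *cahz* (111 CPM), and the elastase gene *ela2l* (1328 CPM).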

How the results depend on the processing

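The choice of the total moved the shares most. With the NC_002333 entries kept in the total, the 10, 50 and 100 most abundant entries held 17.4, 29.6 and 35.8% of the counts, and 703 entries were needed for 50%. With the 13 mitochondrial mRNA entries also left out, an alternative chosen after seeing the data, the apolipoprotein list held 19.3%, the ribosomal protein list 13.3%, the plasma carrier list 8.59% and the amino acid list 2.43%. The count of entries varying 4-fold was 3246 with no filter and 310 with a filter of 50 CPM, because other numbers of entries were then tested, and 7510 entries exceeded counting error with no filter. Leaving out each pool in turn gave 744 to 1099 entries varying 4-fold (17.02 to 23.69% of those tested), the lowest without replicate 5. The other 156 values of the summary results under an alternative moved by less than the spread between pools or, for counts, by less than 1.5 times. Many of them could not have moved further. Leaving out 1 of 5 pools cannot shift the mean share of a list by the SD of the pools. Shares of lists under other factors were judged on the mean over pools, which leaves the order of the pools unchecked. Among single genes 25 values moved further and 5 fell under 4-fold. Of the 30 entries with the largest SD, 28 were shared with TMM factors, 23 with a prior count of 0.5 and 18 without replicate 5. With the pancreas, intestine and red cell lists left out, also chosen after seeing the data, 1196 entries varied 4-fold. Shares per kb of coding length and the search of promoter sequence were not run. No paired analysis was possible because there is a single group and no comparison between groups.

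The depth limits low entries, since 3 counts correspond to 0.789 to 1.03 CPM. Differences between animals, in dissection and between libraries cannot be told apart here, and the replicates may be technical.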

Other observations

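The genes that follow were picked after their values were seen and stand for no group. The C-reactive protein gene *crp2* stood at 1500.3, 40.5, 1412, 26.7 and 404 CPM in replicates 1 to 5, with replicates 1 and 3 the highest, whereas its relative *crp3*, at a mean of 1475.7 CPM, varied 2.17-fold. Haptoglobin, the haemoglobin scavenger encoded by *hp*, stood at 355, 18.2, 18.2, 89.2 and 29.04 CPM, with replicate 1 far above the rest, whereas *cp*, the gene of the copper carrier ceruloplasmin, was even at 2943, 3057, 3300.5, 3226 and 4209.7 CPM. The antimicrobial peptide gene *leap2* was also highest in replicate 1, at 102, 41.8, 9.24, 74.1 and 32.5 CPM. The type IV antifreeze protein gene *afp4*, an apolipoprotein-like gene that was the 26th entry by level, ranged over 9009.6, 1459.9, 6321, 3289 and 4666 CPM.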
